A study of Mus musculus with 6 samples.

Results

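The genes described here encode the ISG15 conjugation system of the mouse, that is the modifier Isg15, the activating enzyme Uba7, the conjugating enzyme Ube2l6, the ligases Herc6 and Trim25, and the protease Usp18. They make up 6 of the 54886 genes listed in each library, and all 6 passed the filter on low values, which left 11884 genes to be tested. The genes were picked by name, with their difference between PM2.5-exposed and control cells already in view. That difference is therefore described below without a test.

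ISG15 is a ubiquitin-like protein with a pair of ubiquitin folds, and it is joined to target proteins by a cascade that mirrors ubiquitin conjugation. UBA7 (E1) activates the modifier, UBE2L6 (E2) receives it, and a ligase (E3) passes it to the target. HERC6 is the main ISG15 ligase of the mouse and TRIM25 is a second one, which also ubiquitinates the RNA sensor RIG-I. USP18 removes ISG15 from proteins and, independently of that activity, binds the interferon receptor subunit IFNAR2 and restrains its signaling. The genes are classic targets of type I interferon, which acts on them through the interferon-stimulated response element (ISRE), a DNA element bound by a complex that includes STAT2 and IRF9.

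The RNA came from GC-2spd, a line derived from BALB/c mouse spermatocytes and immortalized with viral large T antigen. The cells were cultured for 48 h without PM2.5 (0 μg/mL, control group) or with PM2.5 at 100 μg/mL, and 3 libraries were sequenced per group. The particles were an urban reference dust suspended in PBS. The labels give the control cells normal culture medium, to which the study's methods add PBS. The study's methods speak of repeated experiments for quantitative data in general, but do not say whether the libraries of a group came from separate cultures, so the spread between them may be technical.

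The recovered depth was 16209352 to 18003201 reads per library. The labelled cell type was not visible in its markers, as 0 of 12 meiotic genes reached a mean of 1 FPKM over the 6 libraries. FPKM are fragments scaled to gene length and to a factor for each library, so that levels can be compared between genes. Dazl, Spo11, Hormad1, Piwil1 and Mael were listed at 0 in every library. Sycp3 had a mean of 1.10 FPKM in the control group, with 2.56 FPKM in control replicate 2. The summed level of 6 fibroblast or peritubular markers was 672 to 747 FPKM in control libraries and 382 to 640 FPKM in PM2.5 libraries. Most of each sum was Col1a1 and Col1a2. Acta2 was at 41.6 to 88.3 FPKM and Pdgfra at 7.89 to 16.6 FPKM, whereas Thy1 and Myh11 reached at most 0.0257 and 0.142 FPKM. Col1a1 was at 435, 437 and 193 FPKM in PM2.5 replicates 1, 2 and 3. The sum of 6 Sertoli cell markers, mostly Gata4, was 17.3 to 19.2 FPKM in control and 12.1 to 23.6 FPKM in PM2.5 libraries. For 6 Leydig cell markers the sum was 2.01 to 2.59 FPKM in control and 1.74 to 1.89 FPKM in PM2.5 libraries. For 7 macrophage or lymphocyte markers the sum was 1.13 to 15.5 FPKM in control and 1.40 to 2.504 FPKM in PM2.5 libraries, with Ptprc, Adgre1 and Cd3e at 0 throughout. The 15.5 FPKM were Cd68 alone in control replicate 2, and Cd68 was at 1.03 and 0.750 FPKM in control replicates 1 and 3. The part of these markers in the results was not tested. Control replicate 2 stood apart, with a Pearson's r of at most 0.779 with any other library across genes and 14.5% of its reads in mitochondrial genes, against 1.65% to 1.95% elsewhere. The differences of the 6 genes are therefore given with and without control replicate 2. PM2.5 replicate 3 was nearer to control replicates 1 and 3 (r of 0.972 each) than to PM2.5 replicates 1 and 2 (0.950 and 0.958). PM2.5 replicates 1 and 2 had an r of 0.991 with each other.

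Promoters of the genes are shown because they are where an ISRE would be looked for. RefSeq sequences on GRCm38.p6, from 250 bases before to 50 bases after the start, were found for 5 of the 6 genes. The 3 that held a match are printed from 5′ to 3′ on the strand of the gene, with each match to the ISRE (GAAA, any 2 bases, GAAA) or to the IRF core (AANNGAAA) on either strand in capitals. Every ISRE match also holds an IRF core.
Isg15, chr4:156200769-156201068, minus strand: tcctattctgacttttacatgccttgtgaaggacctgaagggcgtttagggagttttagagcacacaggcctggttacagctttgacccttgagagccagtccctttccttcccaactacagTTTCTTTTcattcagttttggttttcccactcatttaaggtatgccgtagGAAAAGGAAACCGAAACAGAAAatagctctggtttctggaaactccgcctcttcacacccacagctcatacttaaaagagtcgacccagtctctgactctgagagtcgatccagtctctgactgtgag
Uba7, chr9:107975317-107975616, plus strand: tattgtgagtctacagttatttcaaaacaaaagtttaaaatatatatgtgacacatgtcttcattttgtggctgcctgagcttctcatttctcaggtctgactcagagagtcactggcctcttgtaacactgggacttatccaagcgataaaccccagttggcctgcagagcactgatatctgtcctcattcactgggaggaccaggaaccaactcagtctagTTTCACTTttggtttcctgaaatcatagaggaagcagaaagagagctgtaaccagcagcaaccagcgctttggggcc
Trim25, chr11:88999153-88999452, plus strand: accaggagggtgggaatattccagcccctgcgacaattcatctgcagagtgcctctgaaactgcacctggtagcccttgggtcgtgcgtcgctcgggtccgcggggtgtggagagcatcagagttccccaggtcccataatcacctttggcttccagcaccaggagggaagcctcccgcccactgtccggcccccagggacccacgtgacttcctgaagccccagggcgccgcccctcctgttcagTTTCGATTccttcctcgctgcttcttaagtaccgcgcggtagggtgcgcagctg

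The Isg15 promoter held 3 overlapping ISRE matches on the strand of the gene, GAAAAGGAAA, GAAACCGAAA and GAAACAGAAA, which began 78, 72 and 66 bases before the start. It was the 1 promoter of the 5 with an ISRE match, and 3.44% of all 32851 promoters in the table had one. Uba7 and Trim25 held a single IRF core each, on the opposite strand (AAGTGAAA and AATCGAAA), so that 3 of the 5 promoters had a core, against 23.9% of all promoters. No letters of either kind were present in these windows of Ube2l6 and Herc6. The STAT dimer motif TTCNNNGAA and the AhR motif TNGCGTG matched 0 of the 5 promoters, against 8.30% and 5.07% of all promoters. A match describes the letters only.

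Every gene of the system had a lower level in PM2.5-exposed than in control cells, and for all 6 the highest PM2.5 library lay below the lowest control library. Of all genes tested, 6.85% had this pattern, and 19.6% when control replicate 2 was left out. On the log2(FPKM + 1) scale the difference was widest for the modifier and narrowest for both ligases, with the protease, the E1 and the E2 in between. By the ratio of mean FPKM over all 6 libraries, the E1 (4.45) came before the protease (4.16). Without control replicate 2 this order was reversed, at 3.24 for the E1 and 4.42 for the protease. In a bulk culture, fewer cells with a transcript and less of it per cell cannot be told apart.

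**Figure D1:**
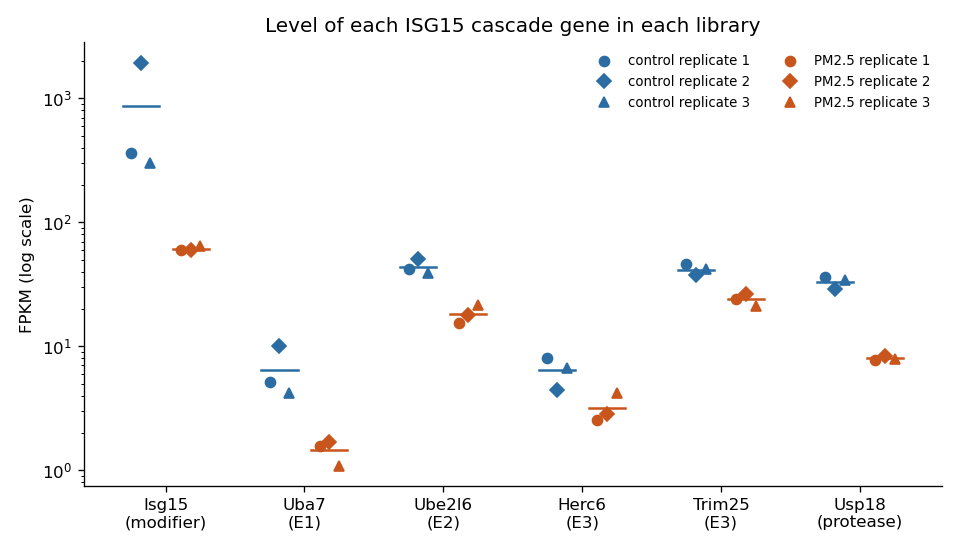
Level of each gene in FPKM on a log axis, with 1 point per library, the symbol giving the replicate number and the bar the mean of 3 libraries. The PM2.5 points of each gene lie below its control points, and control replicate 2 lies far above the other control libraries for Isg15 (1944 FPKM) but not for Usp18 (29.0 FPKM).

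Isg15, the modifier, lies on the minus strand of chromosome 4 (156199424 to 156200818 in GENCODE M21 on GRCm38). Its level was 361, 1944 and 302 FPKM in control replicates 1, 2 and 3, against 59.3, 59.3 and 64.3 FPKM in PM2.5 replicates 1, 2 and 3. The PM2.5 libraries were nearly alike, whereas control replicate 2 was far above the other control libraries. The means were 869 ± 931 FPKM (SD, n = 3) in the control group and 61.0 ± 2.92 FPKM (SD, n = 3) after exposure. This is a 14.3-fold lower mean level, but only 5.44-fold without control replicate 2. On the log2(FPKM + 1) scale the fold change was -3.27 (standard error 0.72), and -2.42 (standard error 0.12) without that library. With 4123 to 19065 reads in the control libraries and 795 to 879 in the PM2.5 libraries, counting error was small beside these differences.

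The excess of Isg15 in control replicate 2 was 2.55 on the log2 scale over the mean of control replicates 1 and 3. An absolute deviation of this size or more was found for 5.08% of all genes tested. Isg15 has a short exon length of 756 bases, and the 669 genes within 1.5-fold of this length had a median deviation of 0.53 in the same library. Of these, 12.4% deviated upward at least as far as Isg15. The part of gene length in its level was not tested.

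Uba7, the E1 that is specific for ISG15, lies on the plus strand of chromosome 9 (107975505 to 107984060). Its level was 5.15, 9.96 and 4.22 FPKM in control replicates 1, 2 and 3, against 1.56, 1.70 and 1.08 FPKM in PM2.5 replicates 1, 2 and 3. Control replicate 2 was again the highest, 0.95 above the other control libraries on the log2 scale. The mean was 6.44 ± 3.09 FPKM (SD, n = 3) in the control group and 1.45 ± 0.323 FPKM (SD, n = 3) after exposure, a 4.45-fold lower level. The difference was -1.54 on the log2 scale (standard error 0.32), and -1.22 (standard error 0.16) without control replicate 2. Uba7 had the fewest reads of the 6 genes in every library but control replicate 2, where Herc6 had fewer. Its lowest count, 131 reads in PM2.5 replicate 3, has an exact 95% Poisson interval of 109.5 to 155 reads, which covers counting error only.

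Ube2l6, the E2, lies on the plus strand of chromosome 2 (84798828 to 84810335). Its level was 42.4, 50.6 and 38.8 FPKM in control replicates 1, 2 and 3, against 15.3, 17.8 and 21.4 FPKM in PM2.5 replicates 1, 2 and 3. The control libraries lay close together here, with control replicate 2 only 0.31 above the others on the log2 scale. The mean level was 2.42-fold lower after exposure (43.9 ± 6.05 against 18.1 ± 3.05 FPKM, SD, n = 3 each). On the log2 scale this was -1.23 (standard error 0.22), and -1.13 (standard error 0.16) without control replicate 2.

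Herc6, the main ligase for ISG15 in the mouse, lies on the plus strand of chromosome 6 (57581000 to 57664632). Its level was 8.08, 4.45 and 6.74 FPKM in control replicates 1, 2 and 3, against 2.53, 2.85 and 4.23 FPKM in PM2.5 replicates 1, 2 and 3. Here control replicate 2 was the lowest control library and nearly reached the highest PM2.5 library, being 1.05-fold above it. The mean was 6.42 ± 1.84 FPKM (SD, n = 3) in the control group and 3.20 ± 0.902 FPKM (SD, n = 3) after exposure. The log2 fold change was -0.81 (standard error 0.27), and it was larger, -1.02 (standard error 0.20), without control replicate 2.

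Trim25, a RING-type ligase, lies on the plus strand of chromosome 11 (88999376 to 89020293). Its level was 45.9, 37.3 and 41.6 FPKM in control replicates 1, 2 and 3, against 24.0, 26.5 and 21.3 FPKM in PM2.5 replicates 1, 2 and 3. This was the narrowest difference of the 6 genes, a 1.74-fold lower mean (41.6 ± 4.28 against 23.9 ± 2.62 FPKM, SD, n = 3 each). On the log2 scale it came to -0.77 (standard error 0.20), and -0.85 (standard error 0.13) without control replicate 2. A log2 fold change at or below that of Trim25 was found for 4.70% of all genes tested, and for 1.32% without that library.

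Usp18, the protease, lies on the plus strand of chromosome 6 (121245906 to 121270917). Its level was 36.2, 29.0 and 34.4 FPKM in control replicates 1, 2 and 3, against 7.72, 8.28 and 7.93 FPKM in PM2.5 replicates 1, 2 and 3. Libraries of the same group were close together and the groups far apart, with the lowest control library 3.50-fold above the highest PM2.5 library. The mean was 33.2 ± 3.76 FPKM (SD, n = 3) in the control group and 7.98 ± 0.283 FPKM (SD, n = 3) after exposure, a 4.16-fold lower level. The difference on the log2 scale was -1.92 (standard error 0.18), and -2.01 (standard error 0.09) without control replicate 2.

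**Figure D2:**
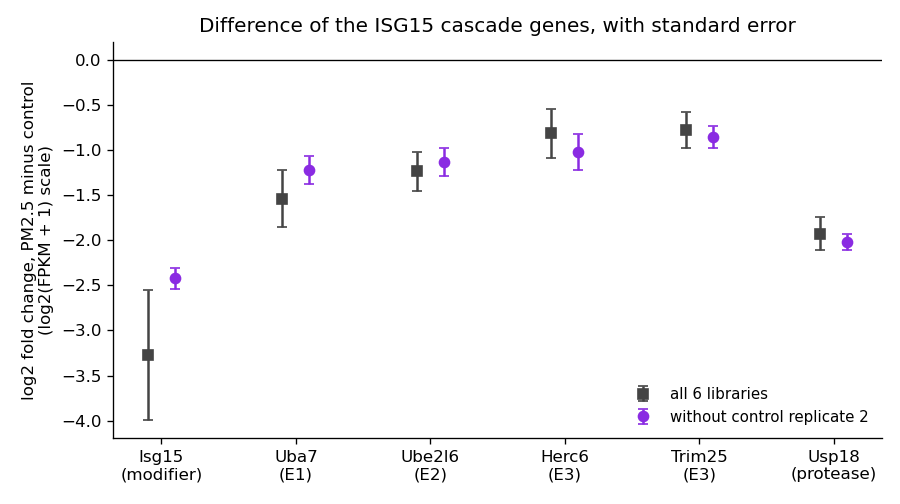
Log2 fold change of each gene (PM2.5 minus control, on the log2(FPKM + 1) scale) with its standard error from limma, for all 6 libraries (squares) and without control replicate 2 (circles). Without that library Isg15 moves from -3.27 to -2.42 and Herc6 from -0.81 to -1.02, and all 12 points stay below 0.

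In the fit over all genes, 1 of the 6 genes (Usp18) met the threshold for differential expression in limma, that is, an adjusted p-value (Benjamini-Hochberg) under 0.05 and a log2 fold change beyond 1 in either direction. Of all genes tested, 0.0589% were called lower in this way. Without control replicate 2 it was 2 of the 6 (Usp18 and Isg15), against 0.552% of all genes. When any of the other 5 libraries was left out, limma called 0 genes, Usp18 included, with 194 to 625 genes at an unadjusted p-value under 0.05. As the genes were picked with this contrast known, the counts carry no weight of their own.

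The genes of the system differed widely in level. In control libraries the order of mean FPKM was Isg15, Ube2l6, Trim25, Usp18, Uba7 and Herc6. Isg15 was above 99.7% of all genes tested, while Uba7 and Herc6 were above 41.2% and 41.0%. The neighbours Ube2l6 and Trim25 overlapped between libraries, as did Uba7 and Herc6, and these pairs did not differ beyond their spread. After PM2.5 exposure the order was Isg15, Trim25, Ube2l6, Usp18, Herc6 and Uba7, which was also the order in control libraries without control replicate 2. Herc6 was above Uba7 in every PM2.5 library and in control replicates 1 and 3, and below it in control replicate 2.

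Because the members differed in how far they lay below the control level, the proportions within a library also differed. Both Trim25 and Usp18 were little affected by control replicate 2, and Trim25 exceeded Usp18 by 1.27, 1.29 and 1.21 times in control replicates 1, 2 and 3. In PM2.5 replicates 1, 2 and 3 it did so by 3.11, 3.20 and 2.68 times. The ligase was thus more abundant relative to the protease in every exposed library. The ratio of modifier to protease (Isg15 over Usp18) was 9.99, 67.1 and 8.79 in control replicates 1, 2 and 3, against 7.68, 7.16 and 8.11 in the PM2.5 libraries. Apart from control replicate 2, these ratios lay in a narrow range, and the groups did not overlap.

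The ratio of modifier to E1 (Isg15 over Uba7) was 70.2, 195 and 71.7 in control replicates 1, 2 and 3, against 38.1, 34.8 and 59.4 after exposure. Isg15 made up 72.4%, 93.7% and 70.6% of the summed FPKM of the 6 genes in control replicates 1, 2 and 3, and 53.7%, 50.9% and 53.5% in PM2.5 replicates 1, 2 and 3. The remaining 5 genes, all enzymes, summed to 138, 131 and 126 FPKM in control replicates 1, 2 and 3, against 51.1, 57.1 and 55.9 FPKM after exposure. The sum of the enzymes in control replicate 2 was therefore like that of the other control libraries, in contrast to Isg15.

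**Figure D3:**
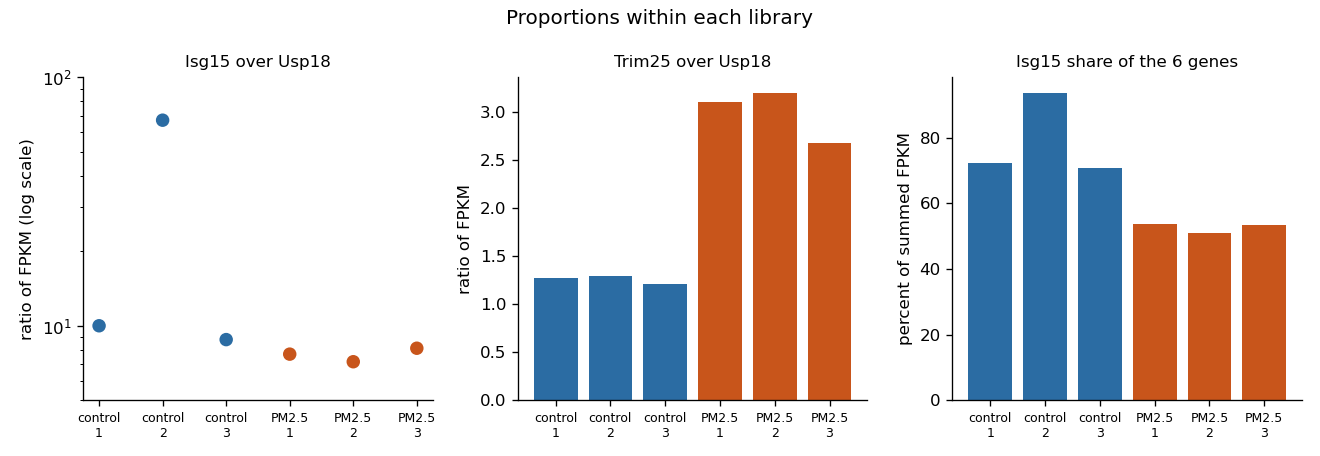
Ratio of Isg15 to Usp18 FPKM (left, log axis), ratio of Trim25 to Usp18 FPKM (middle) and share of Isg15 in the summed FPKM of the 6 genes in percent (right), with 1 point or bar per library, blue for control and orange for PM2.5. Trim25 over Usp18 is at most 1.29 in control and at least 2.68 in PM2.5 libraries, and control replicate 2 stands out for Isg15 over Usp18 at 67.1.

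Across the 6 libraries, Pearson's r of log2(FPKM + 1) between members lay between 0.549 (Isg15 and Herc6) and 0.983 (Isg15 and Uba7). These values describe 6 points that share the group difference and control replicate 2. The 8 genes most like the mean profile of the members included Sema7a, Gbp7, Ifi44, Lgals9, Trim30d, Phf11d and Gm15536, and the 8 had r between 0.993 and 0.997 over 6 libraries. The members themselves had r between 0.825 (Herc6) and 0.986 (Usp18) with that profile. Each member is part of the profile, which raises its r, so these values cannot be set beside those of the 8 genes. Ifi44, an interferon-induced gene, was at 9.96, 8.80 and 7.16 FPKM in control replicates 1, 2 and 3 and at 0.648, 0.625 and 0.650 FPKM in PM2.5 replicates 1, 2 and 3. It was the 1 gene of these 8 that met the threshold in limma, with a log2 fold change of -2.54 (standard error 0.18, adjusted p = 0.0347), and -2.53 without control replicate 2. Lgals9, which encodes galectin-9, differed by -0.76 on the log2 scale (standard error 0.18, adjusted p = 0.590 in limma), and by -0.75 without that library.

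Related conjugation systems were compared next, since each joins its own modifier to proteins through enzymes of related families. The lists for ubiquitin, SUMO, NEDD8, UFM1, and FAT10 with URM1 held 44 genes, of which 43 were tested. Of these 43, limma called 0, and 0 had an unadjusted p-value under 0.05, against 3.8% of all genes tested. Without control replicate 2 it again called 0, with 6 at an unadjusted p-value under 0.05, against 16% of all genes. Their median log2 fold change was 0.04, beside 0.02 for all genes tested and -1.39 for the 6 ISG15 genes. Every PM2.5 library lay below every control library in 0 of the 43 (6.85% of all genes tested) and above in 3 (8.35% of all genes tested).

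Among single genes of these systems, several stood apart in control replicate 2. Uba1, the main E1 of ubiquitin, was at 105, 36.5 and 109 FPKM in control replicates 1, 2 and 3 and at 116, 120 and 109.5 FPKM in PM2.5 replicates 1, 2 and 3. Uba1 had an adjusted p-value of 0.875 in limma, at 0.61 on the log2 scale (standard error 0.45), and was at 0.10 without control replicate 2. Ube2l3, the E2 of ubiquitin closest to Ube2l6 in name and class, was at 41.1, 44.3 and 40.5 FPKM in control and 32.0, 33.6 and 42.1 FPKM in PM2.5 libraries, so that the groups overlapped. Sumo2 had the lowest log2 fold change of the SUMO list, -0.98 (standard error 0.72, adjusted p = 0.875 in limma). Without control replicate 2 it was -1.09 (standard error 0.85, adjusted p = 0.572 in limma). Sumo2 was highest in control replicate 1, and its groups overlapped. Its level was 44.9, 15.1 and 7.89 FPKM in control replicates 1, 2 and 3, against 17.4, 7.37 and 4.56 FPKM in PM2.5 replicates 1, 2 and 3. In the NEDD8 list the values ran from -0.49 for Rbx1, a RING ligase subunit, to 0.38 for the protease Senp8, and these 2 were at -0.10 and -0.06 without control replicate 2. The highest value of the UFM1 list was 0.29, for the protease Ufsp2, which was at 0.06 without it, when the list reached 0.68. In the SUMO list the highest was 0.50 for Uba2, a subunit of its E1, which turned to -0.01 without that library. In the URM1 system Urm1 and Mocs3 were at 0.22 and 0.35, and at 0.33 and 0.20 without it. Ubd, which encodes FAT10, was listed at 0 in all 6 libraries.

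**Figure D4:**
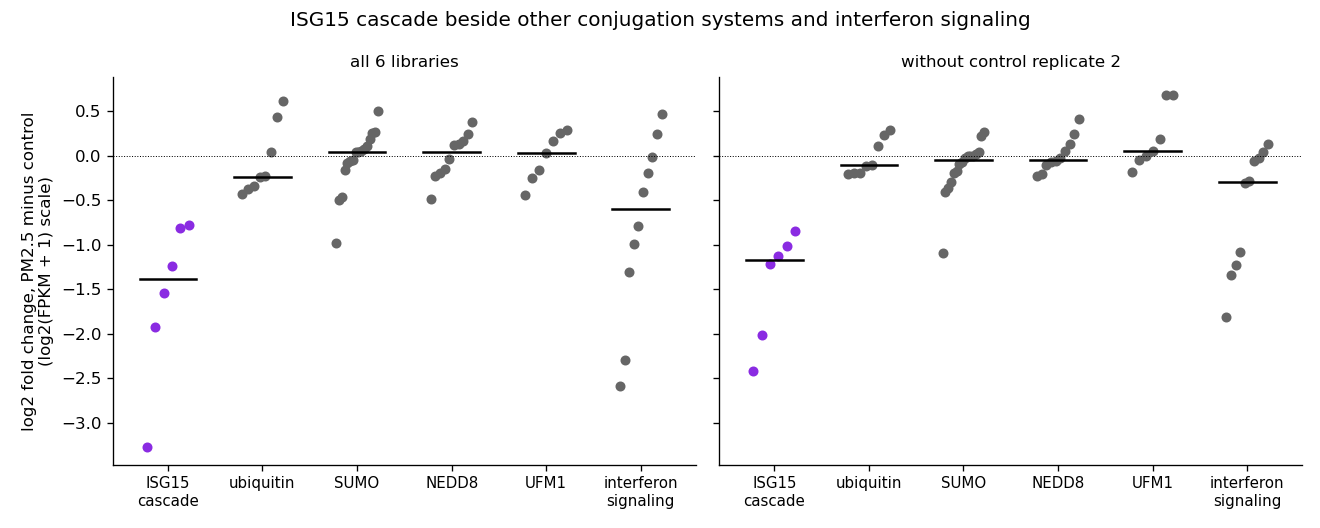
Log2 fold change (PM2.5 minus control, log2(FPKM + 1) scale) of every tested gene of the ISG15 cascade (purple), of 4 other conjugation systems and of interferon signaling (grey), with 1 point per gene and the bar at the median, for all 6 libraries (left) and without control replicate 2 (right). The ISG15 genes have a median of -1.39 and -1.17, whereas the medians of the ubiquitin, SUMO, NEDD8 and UFM1 lists lie between -0.24 and 0.06.

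Families were taken by gene symbol alone, which does not show that every gene in them has the same activity. Within its own family, each enzyme except Trim25 had the lowest log2 fold change. Uba7 was the lowest of 6 E1 genes. Ube2l6 was the lowest of 30 E2 genes, followed by the mitotic Ube2c at -0.72 (standard error 0.36), or -0.36 without control replicate 2. Usp18 was the lowest of 42 USP genes, followed by Usp21 at -0.46 (standard error 0.28), or -0.19 without that library. By mean level Usp18 ranked 4 of the 42 in control cells and 26 after exposure. Without control replicate 2, Usp19 (37.8 FPKM) and Usp14 (36.1 FPKM) also lay above Usp18 (35.3 FPKM) in control cells. Herc6 was the lowest of 5 HERC genes and ranked 2 by level in control and 4 in PM2.5 libraries.

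Trim25 ranked 6 of 33 TRIM genes from the lowest log2 fold change, although it ranked 3 by level in control cells. Without control replicate 2, Trim44 (44.7 FPKM) also lay above Trim25 (43.8 FPKM) in control cells. The lowest TRIM gene was Trim12c (-1.87, standard error 0.41, adjusted p = 0.527 in limma), which was at -1.42 (standard error 0.14, adjusted p = 0.0266 in limma) without control replicate 2. Trim12c has similar copies, and the reads it shares with them were not measured. The relatives with the highest values depended on control replicate 2. Usp1 was at 0.95 (standard error 0.82), Trim35 at 0.97 (standard error 0.83) and Ube2q2 at 0.76 (standard error 0.66), and all 3 were at -0.02 or -0.03 without that library. The other HERC genes ran from -0.14 for Herc3 to 0.29 for Herc1, and without that library all 4 were below 0, from -0.48 for Herc3 to -0.11. In the E1, E2, HERC, TRIM and USP families 111 relatives were tested, and limma called 0. In that fit 2 of them had an unadjusted p-value under 0.05, against 3.8% of all genes tested. Without control replicate 2 limma called 3 of 110, all lower, namely Trim12c, Trim30a and Trim30d, against 0.552% of all genes. The fold change of Trim30a moved from -0.98 (standard error 0.72) to -1.84 (standard error 0.15, adjusted p = 0.0176 in limma) without that library.

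The genes that carry the interferon signal to the ISRE were split. Of the 10 tested, limma called 0 (4 at an unadjusted p-value under 0.05, against 3.8% of all genes tested). Without control replicate 2 it called 4, all lower, against 0.552% of all genes called lower. Among the 4 were Stat2, Irf9 and Irf7.

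Stat2, which also docks USP18 at the receptor, was at 21.5, 141 and 16.3 FPKM in control replicates 1, 2 and 3 and at 7.35, 6.55 and 6.43 FPKM in PM2.5 replicates 1, 2 and 3. Irf7 showed the same excess, with 31.04, 140 and 24.8 FPKM in control replicates 1, 2 and 3, against 7.71, 8.39 and 5.69 FPKM after exposure. Like Isg15, both genes were several times higher in control replicate 2 than in the other control libraries. Irf9, at 18.05, 14.3 and 17.6 FPKM in control libraries and 7.26, 8.48 and 7.89 FPKM in PM2.5 libraries, did not share this excess. Without control replicate 2, Irf9 had a value of -1.09 on the log2 scale (standard error 0.10, adjusted p = 0.0198 in limma).

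The genes of the receptor and its kinases were not called in either fit. On the log2 scale the difference was -0.01 for Ifnar1 (standard error 0.17, adjusted p = 0.977 in limma) and 0.24 for Ifnar2 (standard error 0.19, adjusted p = 0.875 in limma), and -0.02 and 0.13 without control replicate 2. Jak1 was at 53.1, 9.96 and 51.0 FPKM in control and 39.3, 41.8 and 46.5 FPKM in PM2.5 libraries, so that its log2 fold change of 0.47 turned to -0.29 without control replicate 2. Of the 21 interferon ligand genes, 0 passed the filter and 18 were at 0 in every library. Ifnb1, which encodes interferon beta, had reads in control replicates 2 and 3 (8 and 2 reads) and in PM2.5 replicate 1 (2 reads), and 0 in the other libraries. At most 8 reads were found for any ligand in a library, and a count of 0 allows up to 3 reads, so that a difference in ligands was not detectable at this depth.

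Partners of the system outside the cascade varied in direction. Of 12 listed genes 9 were tested, with log2 fold changes from -2.30 for Stat2 to 0.46. Limma called 0 (1 at an unadjusted p-value under 0.05, against 3.8% of all genes tested). Without control replicate 2 it called 1 (Stat2, lower), against 0.552% of all genes called lower. In 3 of the 9 (Stat2, Usp2 and Usp21) every PM2.5 library lay below every control library, against 6.85% of all genes tested. In 1 of the 9 (Ifnar2) every PM2.5 library lay above, against 8.35%. The group holds Skp2, the F-box protein that targets USP18 for degradation, and proteases reported to react with ISG15. It was -0.14 on the log2 scale for Skp2 (standard error 0.18) and 0.27 for the protease Usp16 (standard error 0.27), each with an adjusted p-value of 0.875 in limma, and -0.15 and 0.03 without that library. For Usp5, which had the highest fold change of the list, it was 0.46 (standard error 0.39, adjusted p = 0.875 in limma), but 0.04 without control replicate 2. Itgal, a subunit of the LFA-1 receptor for extracellular ISG15, did not reach 0.05 FPKM in any library. The other subunit, Itgb2, was below the filter and higher in PM2.5 libraries, at 0.141, 0.303 and 0.218 FPKM (8, 12 and 12 reads) in control and 0.844, 1.02 and 0.671 FPKM (46, 55 and 37 reads) in PM2.5 libraries.

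Of 17 genes whose proteins are reported to carry ISG15, 15 were tested. Limma called 0 of them (4 at an unadjusted p-value under 0.05, against 3.8% of all genes tested). Without control replicate 2 it called 4, all lower, among them Ifit1, Ddx58 and Eif2ak2, against 0.552% of all genes. Eif2ak2, the RNA-activated kinase PKR, had a mean of 43.3 ± 14.0 FPKM in the control group and 22.1 ± 1.17 FPKM after exposure (SD, n = 3 each). Ddx58 encodes RIG-I, the sensor that TRIM25 modifies, and was at 44.5, 24.8 and 39.3 FPKM in control replicates 1, 2 and 3 and at 14.9, 15.9 and 16.7 FPKM in PM2.5 replicates 1, 2 and 3. For Ddx58 the difference was -1.10 on the log2 scale (standard error 0.26, adjusted p = 0.600 in limma), and -1.35 (standard error 0.11, adjusted p = 0.0137 in limma) without control replicate 2. Ifit1, an RNA-binding effector, was at 71.3, 244 and 60.1 FPKM in control and 6.89, 8.74 and 11.4 FPKM in PM2.5 libraries. Its log2 fold change of -3.38 (standard error 0.56, adjusted p = 0.273 in limma) was the lowest of the list, and moved to -2.75 without control replicate 2. The median of the 15 genes was 0.05, and -0.24 without control replicate 2.

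Sequence shared with other genes was limited for the members. Of their 31-base sequences, 13.1% of Isg15, 15.5% of Ube2l6 and 13.8% of Herc6 also occur in transcripts of other genes. The share was 3.48% for Usp18, 2.89% for Uba7 and 0.628% for Trim25. Exons of 3 members overlap another annotated gene. That gene lies on the same strand for Uba7 (Gm20661, at most 2 reads in a library) and Herc6 (Gm45193, 0 reads), and on the opposite strand for Usp18 (Gm44148, at most 2 reads). Reads that the counting left out as ambiguous are not known for these loci.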

How the data were processed

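Total RNA of GC-2spd cells was sequenced as paired-end reads. According to the submitters' processing notes and the methods, reads were mapped with HISAT2 2.0.5 (build named: mm9) and assigned to genes with featureCounts 1.5.0-p3, and the authors deposited FPKM per gene, 1 file per library. The files hold gene identifiers without coordinates. Symbols, positions and exon lengths came from GENCODE M21 (GRCm38), which gave a length for 54495 of 54886 genes. With these lengths, 98.0% to 98.1% of values under 50 reads fell within 0.02 of a whole read in each library, and reads were recovered in this way. The deposited scaling between libraries followed median-of-ratios size factors and was kept.

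Groups and replicate numbers came from the sample titles. Differences were fitted with limma 3.58.1 (R 4.3.3, trend and robust) on log2(FPKM + 1) over the 11884 genes whose mean was 1 FPKM or more, with p-values adjusted over all of them. The pseudocount understates the fold change of low genes. The computation was tested on simulated data with no outlying library, which does not show how it performs with one. The members and gene lists were chosen with earlier results of these data known. All members were named, and from each list or family the called genes, or those with the largest rise and fall, where called covers the fit without control replicate 2. Ube2l3, Ubd, Ifnb1, Ifnar1, Ifnar2, Skp2, Usp16, Itgal, Itgb2 and Usp2 were chosen after their values were seen. A few genes that this rule names are not reported here. Genes most like the members were the 8 with the highest Pearson r. Alternatives were another pseudocount, filter, threshold or scaling, voom, a replicate block and leaving out each library. No pair of libraries was identical (chi-square per degree of freedom at least 3.60).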

Additional observations from a re-analysis of the deposited data

How the results depend on the processing

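The log2 fold change of each of the 6 ISG15 genes was below 0 under all 10 alternatives run for it. Leaving out each library in turn gave -3.76 to -2.42 for Isg15, -1.76 to -1.22 for Uba7, -1.35 to -1.12 for Ube2l6, -1.02 to -0.65 for Herc6, -0.85 to -0.70 for Trim25 and -2.01 to -1.86 for Usp18. Beyond the residual SD between replicates, Uba7 moved to -2.005 with a pseudocount of 0.1, which weighs low values more. Usp18 also moved beyond its small residual SD, to -1.80 with scaling to the recovered reads, which shifts the median of all genes by 0.11. This move of Usp18 was within its standard error of 0.18. The other members moved toward 0 as well with that scaling, Isg15 to -3.14, Uba7 to -1.43, Ube2l6 to -1.10, Herc6 to -0.71 and Trim25 to -0.65.

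The number of genes called by limma, 11 (4 higher, 7 lower), dropped to 6 (3 higher, 3 lower) when values were scaled to the recovered reads. It was 0 without a filter, with the replicate block and with voom on the recovered reads, with 875, 335 and 423 genes, respectively, at p under 0.05 before adjustment. Leaving out each library in turn gave 0 to 84, with the 84 (20 higher, 64 lower) without control replicate 2. The fits with 0 had 194 to 625 genes at an unadjusted p-value under 0.05. With that library left out and no fold threshold, an alternative chosen after seeing the data, it was 119. The cause was not tested. Among the 167 tested genes of the other lists and families, 0 were called (9 at an unadjusted p-value under 0.05), 0 to 10 with each library left out, and 11 without control replicate 2 and without a fold threshold. With the replicate block, too, 0 of the 167 were called (11 at an unadjusted p-value under 0.05).

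The replicate numbers were not taken as pairs, since deviations of same-numbered libraries had correlations of -0.28 to 0.25 across genes. Depth limits the ligand genes most, at no more than 8 reads.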

Other observations

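The protein-coding genes next to each ISG15 gene were also examined. Of 12 neighbours 8 were tested, limma called 0 of them with or without control replicate 2, and their log2 fold changes lay between -0.86 and 0.17. Both neighbours of Isg15 had values close to those of Trim25 and Herc6. Agrn, 1936 bases away, encodes the basement membrane protein agrin and differed by -0.82 on the log2 scale (standard error 0.24, adjusted p = 0.875 in limma), and by -0.83 without control replicate 2. For AW011738, 2486 bases away on the other side, it was -0.86 (standard error 0.27, adjusted p = 0.875 in limma), and -0.62 without that library. The neighbours of Trim25, Coil and Dgke, had log2 fold changes of 0.17 (standard error 0.20) and 0.00 (standard error 0.18).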
